A study of Mus musculus with 8 samples.

Results

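The replication-dependent core histone genes are the short genes of the mouse Hist1, Hist2 and Hist4 clusters that code for the core histones H2A, H2B, H3 and H4. The set held 42 Ensembl gene identifiers out of 28785 genes listed in at least 1 library. It was chosen by gene family annotation, with no threshold on a measured value but with the RPKM values of these 4 libraries known. Of the 42, 41 were listed in at least 1 library and 40 in all 4, and 37 passed a filter on the mean over all 4 libraries (1 RPKM or more), as did 4688 genes in all. Because the values were known when the set was made, every count below is a description and none is offered as support for the choice of the set.

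RNA was measured in mouse embryonic fibroblasts (MEFs, connective tissue cells grown from embryos) of genotype TSC2+/+ on the C57BL/6J strain background. The control cells had no heat shock. The other cells were held at 42 °C for 1 h and then at 37 °C for 3 h, so they were collected during recovery. In both conditions the cytoplasm and a urea-washed nuclear pellet, called chromatin, were sequenced separately, with a-amanitin, an inhibitor of RNA polymerase II, in the lysis and wash buffers of all groups. This gave 4 libraries with 1 library per group, and the labels do not say whether cultures were pooled. No difference has a replicate check or a test, and all intervals cover counting error only. Another 4 chromatin libraries, m6A immunoprecipitations and their inputs, were not analysed here. The tables name genes by Ensembl identifier, and 0 of the identifiers could be paired with a symbol, so the genes are given by identifier and the H2A, H2B, H3 or H4 class of a single gene is not given. Fibroblast markers could not be looked up for the same reason, and the cell type stands as labelled.

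Core histones are the proteins around which DNA is wound in nucleosomes, with H3 and H4 forming the inner tetramer and H2A with H2B forming the flanking dimers. Cells make most of them in S phase, when replicated DNA has to be packed, from many gene copies that lie in clusters and are transcribed together at the nuclear histone locus body. Their mRNAs are not polyadenylated in the usual way: they end in a conserved stem-loop bound by the stem-loop binding protein, and they are degraded quickly when DNA synthesis stops.

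The RefSeq annotation of GRCm38.p6 held 59 protein-coding core histone genes in these clusters, 48 on chromosome 13, 10 on chromosome 3 and 1 on chromosome 6, and 54 of them had a promoter sequence. These are the family's genes by symbol and could not be matched to single identifiers of the set. In the 150 bases before the start, searched on both strands, the CCAAT box (CCAAT) was present in 43 of 54 promoters, against 25.3% of all 27025 promoters. It was found in 17 of 17 H2A promoters, 15 of 15 H2B promoters, 8 of 10 H3 promoters and 3 of 12 H4 promoters. The TATA box (TATAAA) was present in 19 of 54, against 8.08% of all promoters, and the octamer (ATTTGCAT) in 9 of 54, against 1.02%. The 9 promoters with the octamer were 4 of H2A and 5 of H2B genes. The motifs were searched separately, so matches of different motifs may overlap, and a match describes the sequence only. Head-to-head pairs of H2A and H2B genes were counted only up to 250 bases between their starts, so wider pairs are left out. Within this limit there were 8 pairs, with 163 to 248 bases between the starts. All 8 held a CCAAT box between the starts while 2 held an octamer.

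The following upstream sequences show these arrangements. They were chosen after the motifs were located, as the lowest-coordinate pair with an octamer and the first H3 and H4 genes on chromosome 13 with a TATA box. Sequences are from RefSeq, build GRCm38.p6, written 5′ to 3′ on the strand given, and capitals mark the CCAAT box (ATTGG on the other strand), the octamer and the TATA box.
H2ac12 and H2bc12, bases between the starts, chr13:22035644-22035820, plus strand: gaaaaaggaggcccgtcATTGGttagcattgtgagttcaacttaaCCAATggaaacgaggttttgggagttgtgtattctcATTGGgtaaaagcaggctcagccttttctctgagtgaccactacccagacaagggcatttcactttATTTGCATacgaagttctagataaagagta
H3c10, chr13:21717478-21717627, plus strand: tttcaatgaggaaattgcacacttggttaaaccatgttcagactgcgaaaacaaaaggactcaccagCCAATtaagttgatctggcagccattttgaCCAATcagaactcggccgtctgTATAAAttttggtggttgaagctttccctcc
H4c12, chr13:21750554-21750703, minus strand: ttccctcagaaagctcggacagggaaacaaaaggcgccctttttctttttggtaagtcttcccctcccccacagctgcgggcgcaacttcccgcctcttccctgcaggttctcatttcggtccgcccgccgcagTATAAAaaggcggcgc
The H2A and H2B pair shares its CCAAT boxes and its octamer from a single stretch of DNA. The H3 promoter held both a CCAAT box and a TATA box, and the H4 promoter held a TATA box without a CCAAT box.

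Values are RPKM, a read count divided by the gene's length in kb and by the size of the library. Library totals recovered from them were 18364642 reads for control chromatin, 19536459 for chromatin after heat shock, 8292312 for control cytoplasm and 11131382 for cytoplasm after heat shock. The gene with the most reads took 8.01% and 14.0% of the reads in control and heat shock chromatin and 44.6% and 47.4% in the cytoplasmic libraries. The 10 highest-share genes, ranked by their mean share of library reads, took 21.4%, 32.6%, 75.2% and 79.3% in the same order. RPKM is relative to all reads, so these shares bear on every comparison between libraries, and results are also given on other scales where they differ. The 4 scalings used are the deposited RPKM, equal RPKM sums in all libraries, the all-gene median ratio at 0, and equal sums outside the 10 genes with the highest mean RPKM. In bulk fractions such as these, fewer cells that make histone RNA and less histone RNA per cell cannot be told apart.

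Core histone RNA was most abundant in control cytoplasm. The median RPKM over the listed core histone genes was 1.57 in control chromatin, 2.09 in chromatin after heat shock, 17.8 in control cytoplasm and 4.08 in cytoplasm after heat shock. The highest gene in each library reached 13.4, 16.5, 124 and 45.3 RPKM. The recovered gene lengths were 312 to 848 bp for 37 genes, with a median of 463 bp, and over 1 kb for the other 4, which are described last. ENSMUSG00000061482 (393 bp) had the highest mean, with 10.7, 16.5, 124 and 45.3 RPKM in control chromatin, heat shock chromatin, control cytoplasm and heat shock cytoplasm. ENSMUSG00000069274 (391 bp) followed with 13.4, 8.77, 107.6 and 19.3 RPKM, and ENSMUSG00000060678 (395 bp) with 7.996, 9.46, 69.9 and 25.5 RPKM. In all 3 genes control cytoplasm was the highest library and heat shock cytoplasm the second highest. Levels of the genes ran in a similar order in the libraries: Spearman's rho over the genes listed in both was 0.86 between the cytoplasmic libraries (n = 40) and 0.71 between the chromatin libraries (n = 41). It was 0.80 between the fractions of control cells (n = 40) and 0.86 between those of heat-shocked cells (n = 41). These values include the genes over 1 kb where listed, although their RPKM is not comparable in level with that of the short genes. Genes are not independent replicates. How reads of near-identical copies were divided is not given, so values of single genes are uncertain, and sums over the set are less so.

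**Figure D1:**
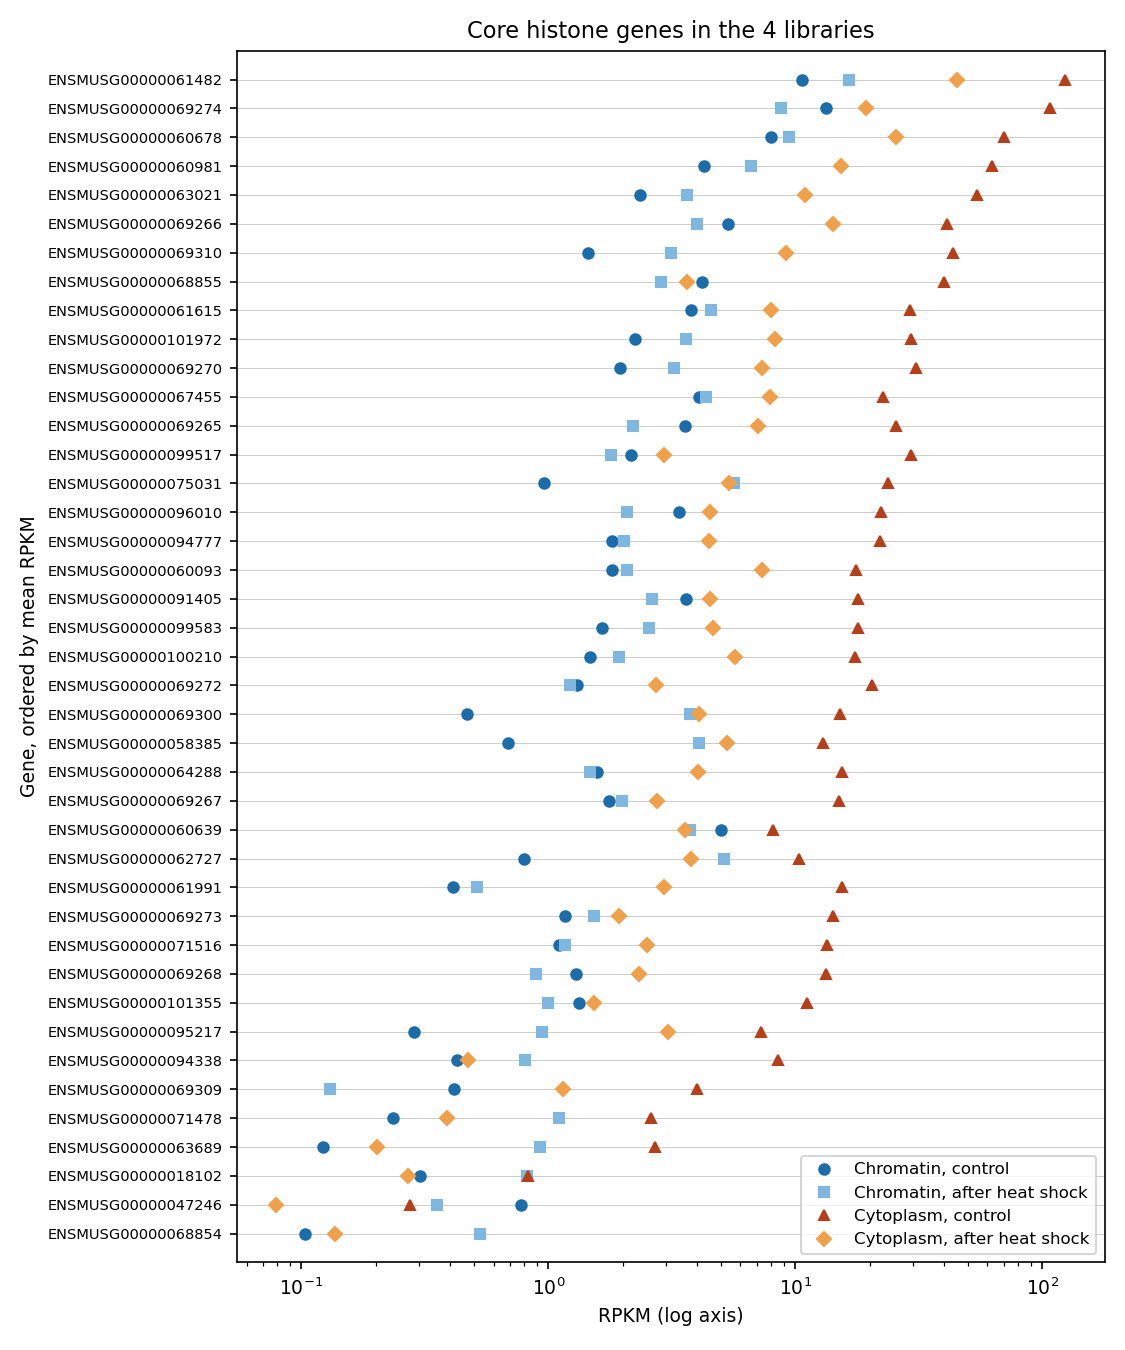
RPKM (log axis) of the 41 listed core histone genes in the 4 libraries, with genes ordered by their mean. Each symbol is 1 library, and control cytoplasm lies to the right of the other libraries for nearly all genes, up to 124 RPKM.

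After heat shock and recovery, core histone RNA was lower in the cytoplasm for every core histone gene listed in both libraries. All 40 genes listed in both cytoplasmic libraries had a lower RPKM after heat shock, from 2.27-fold to 18.1-fold lower with a median of 4.02-fold, and in all 40 the 95% counting interval lay below no difference. By the same rule 40.4% of all genes listed in both libraries lay below and 9.14% above. With the all-gene median at 0, 36 of the 40 lay below, and the share of all genes by this rule is not given. By 2-fold on the log2 ratio described next, 73 of all 4505 genes were then lower. Of the 37 core histone genes past the filter, 32 were. On the log2(RPKM + 1) scale, which understates differences of low genes, the median ratio of heat shock to control was -1.78 over the 37 genes that passed the filter. By 2-fold or more, 36 of these were lower and 0 higher. Over all 4505 genes with a ratio the median was -0.25, 2.44% were lower by 2-fold or more and 3.4% higher. Core histone genes made up 32.7% of the 110 genes that were at least 2-fold lower, 5 of the lowest 10 and 35 of the lowest 100. Of the 36 genes, 32 were at least 2-fold lower on all 4 scalings. ENSMUSG00000058385, ENSMUSG00000060093, ENSMUSG00000069309 and ENSMUSG00000095217 were not. Of all genes past 2-fold in either direction, 58.2% were higher, against 47.9% with equal RPKM sums, 73.6% with the all-gene median at 0 and 47.1% with equal sums outside the 10 highest-RPKM genes.

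The lowest log2 ratio was that of ENSMUSG00000068855 (520 bp), at 40.1 RPKM in control cytoplasm (173 reads) and 3.63 after heat shock (21 reads). It was 11.1-fold lower (95% counting interval 7.01 to 18.3), while its chromatin values were 4.19 and 2.86 RPKM. ENSMUSG00000099517 (427 bp) was at 29.4 and 2.95 RPKM in cytoplasm, 9.97-fold lower (5.68 to 18.9), and at 2.17 and 1.798 RPKM in chromatin. As deposited, the cytoplasmic level of both genes after heat shock was near their chromatin level, and the counting intervals between the fractions held equality. Rescaling the libraries shifts this comparison between fractions. ENSMUSG00000094338 (381 bp) was at 8.55 RPKM in control cytoplasm (27 reads) and 0.472 after heat shock (2 reads), 18.1-fold lower with a counting interval of 4.55 to 157. With so few reads the size of that ratio is poorly known.

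At the other end, ENSMUSG00000060639 (727 bp) was the only gene past the filter whose log2 ratio as deposited did not reach 2-fold, which it did with equal RPKM sums. It was at 8.13 RPKM in control cytoplasm and 3.58 after heat shock, 2.27-fold lower (1.41 to 3.72), with a log2 ratio of -0.99. ENSMUSG00000095217 (381 bp) was at 7.28 and 3.07 RPKM, 2.38-fold lower (1.15 to 5.10), and ENSMUSG00000058385 (477 bp) at 12.9 and 5.27 RPKM, 2.45-fold lower (1.51 to 4.03). The genes at both ends were thus lower after heat shock, and the set differed in degree. The counting intervals of ENSMUSG00000068855 and ENSMUSG00000060639 did not overlap. Both genes were picked as the ends of the set by these same values, so the gap is a description only.

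**Figure D2:**
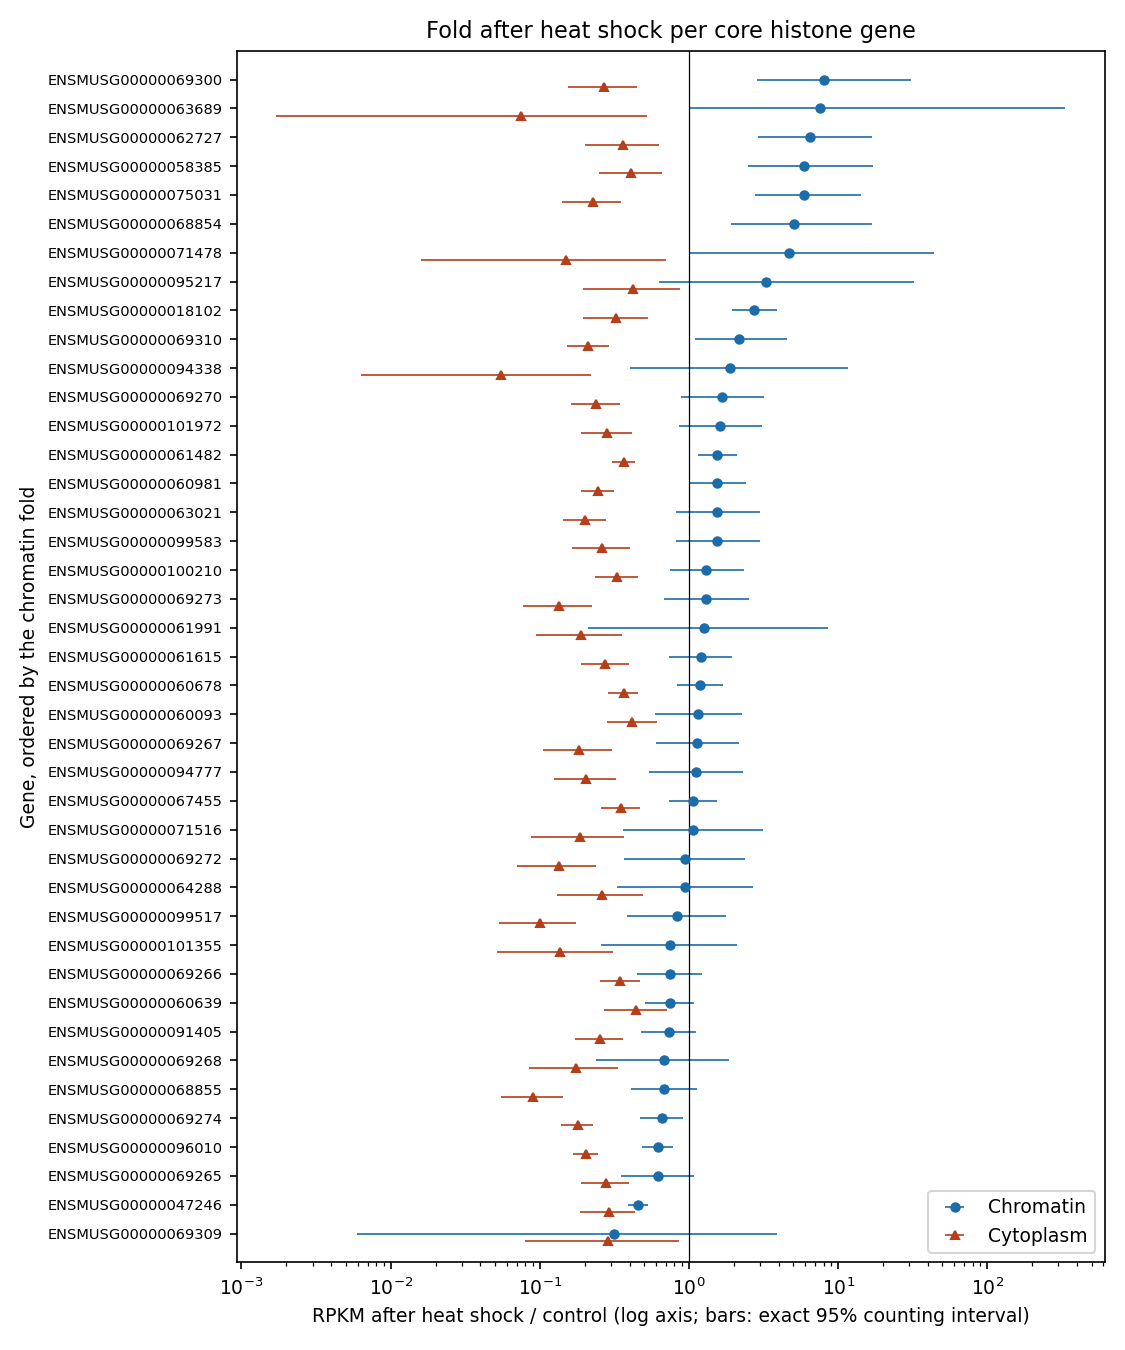
RPKM after heat shock over control (log axis) for each listed core histone gene in chromatin (circles) and cytoplasm (triangles), with bars for the exact 95% counting interval and genes ordered by the chromatin fold. All 40 cytoplasmic points and bars lie below 1, while the chromatin points lie on both sides of it.

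Many genes of similar length did not show this cytoplasmic difference. Among kept genes of over 200 bp to 1 kb, 36 core histone genes had a median log2 ratio of -1.76 and 35 were at least 2-fold lower. The other 134 genes of this length had a median of -0.09, and 16 of them (11.9%) were at least 2-fold lower. This comparison sets the set beside genes of its own length and has no test.

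In chromatin the same genes did not move together. The median log2 ratio of heat shock to control was 0.13 over the 37 genes, with 4 higher by 2-fold or more and 0 lower. Over all 4635 genes with a ratio the median was 0.12, 10.4% were higher by 2-fold or more and 4.66% lower. The share of core histone genes past 2-fold higher (10.8%) was near that of all genes. Other kept genes of over 200 bp to 1 kb lay higher. The median of these 141 genes was 0.46, with 41 at least 2-fold higher and 9 lower. Of the 36 core histone genes of this length, 4 were at least 2-fold higher, with a median of 0.17. The set's median lay 0.02 from that of all genes as deposited and 0.03 from it with equal RPKM sums. That rescaling shifted the median of all genes to -0.38 and that of the core histone genes to -0.35, so the sign of the chromatin median depends on the scale. Of all genes past 2-fold, 69.0% were higher as deposited, 26.1% with equal sums, 57.6% with the all-gene median at 0 and 31.5% with equal sums outside the 10 highest-RPKM genes. By counting intervals on plain RPKM ratios of the 41 genes, 11 lay above no difference, 3 below it and 27 held it. Of all genes listed in both libraries, 29.7% lay above and 27.6% below. With equal RPKM sums 6 of the 41 genes lay above and 9 below, and the shares of all genes by this rule are not given. By 2-fold on the log2 ratio, 294 of all 4635 genes were then higher and 832 lower. Low read counts limited this fraction, although its libraries were the larger ones: 13 genes had fewer than 10 reads in control chromatin, where the median gene had 17 reads.

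The 4 genes at least 2-fold higher in chromatin on the log2(RPKM + 1) scale were 452 to 477 bp long and kept this call on all 4 scalings. The count depends on the pseudocount of 1 RPKM. With 0.1 RPKM 7 of the 37 genes passed. Of all 4635 genes, 728 then passed, against 481 with 1 RPKM. By plain RPKM ratios 10 of the 41 listed genes passed, against 25% of all genes listed in both libraries. ENSMUSG00000069310, for example, was at 1.45 and 3.14 RPKM in chromatin, 2.17-fold higher (1.10 to 4.53). ENSMUSG00000069300 (463 bp) was at 0.470, 3.76, 15.1 and 4.08 RPKM in control chromatin, heat shock chromatin, control cytoplasm and heat shock cytoplasm, from 4, 34, 58 and 21 reads. ENSMUSG00000062727 (476 bp) was at 0.801, 5.16, 10.4 and 3.78 RPKM, from 7, 48, 41 and 20 reads. Both were higher in chromatin after heat shock, by 7.99-fold (2.85 to 31.0) and 6.45-fold (2.90 to 16.9), and lower in cytoplasm. ENSMUSG00000058385 (477 bp) was at 0.685, 4.08, 12.9 and 5.27 RPKM, from 6, 38, 51 and 28 reads. ENSMUSG00000075031 (452 bp) was at 0.964, 5.66, 23.8 and 5.37 RPKM, from 8, 50, 89 and 27 reads. Their chromatin folds were 5.95 (2.50 to 17.2) and 5.88 (2.76 to 14.4). All 4 genes had fewer than 10 reads in control chromatin, so the low control value rests on few reads. On the log2(RPKM + 1) scale the next ratio below these 4 was 0.77, against 1.59 for the lowest of them, while plain folds of genes below them reached 4.70. Summed, the 4 genes had 25 and 170 reads in control and heat shock chromatin and 239 and 96 reads in control and heat shock cytoplasm. These 4 were also at least 2-fold lower in cytoplasm as deposited, which for ENSMUSG00000058385 did not hold on all scalings, and they were among the 14 of all genes past the filter that differed by 2-fold or more on the log2(RPKM + 1) scale, up in chromatin and down in cytoplasm. By plain RPKM ratios other core histone genes also did so, among them ENSMUSG00000069310, ENSMUSG00000071478 and ENSMUSG00000095217. The last 2 rest on few reads. ENSMUSG00000071478 had 2 and 10 reads in control and heat shock chromatin and 10 and 2 in cytoplasm. ENSMUSG00000095217 had 2 and 7 reads in chromatin, and its chromatin interval of 0.626 to 32.5 held no difference. The share of all genes with this pattern by plain ratios is not given.

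As deposited, fewer core histone genes were lower than higher in chromatin after heat shock, 13 against 24 by the sign of the log2 ratio. With equal RPKM sums 10 genes were above 0, with the all-gene median at 0 there were 19, and with equal sums outside the 10 highest-RPKM genes 14. The median of all genes was 0.12 as deposited and -0.38, 0 and -0.29 on these scales, in the same order. The counts of core histone genes above 0 thus moved with the median of all genes. ENSMUSG00000069274, the gene with the highest control chromatin level, was at 13.4 RPKM in control and 8.77 after heat shock, a ratio of 0.656 (0.473 to 0.906). ENSMUSG00000069265 (534 bp) was at 3.57 and 2.21 RPKM in chromatin, a ratio of 0.618 whose interval of 0.349 to 1.08 held no difference. In cytoplasm the latter was at 25.5 and 7.07 RPKM. Among the genes highest in control cytoplasm, ENSMUSG00000061482 was 1.55-fold higher in chromatin (1.16 to 2.09) and ENSMUSG00000060981 (473 bp) also 1.55-fold (1.01 to 2.40). As deposited, the genes highest in cytoplasm therefore lay on both sides in chromatin. Equal RPKM sums lower every chromatin ratio, so the upper side does not hold on all scalings. All 24 genes above 0 in chromatin were below 0 in cytoplasm, as all 37 were, and 46.5% of all genes with both ratios had this pair of signs. Across the 37 genes the chromatin and cytoplasmic log2 ratios had a Spearman's rho of 0.29 and a Pearson's r of 0.30, as a description of points that share libraries.

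**Figure D3:**
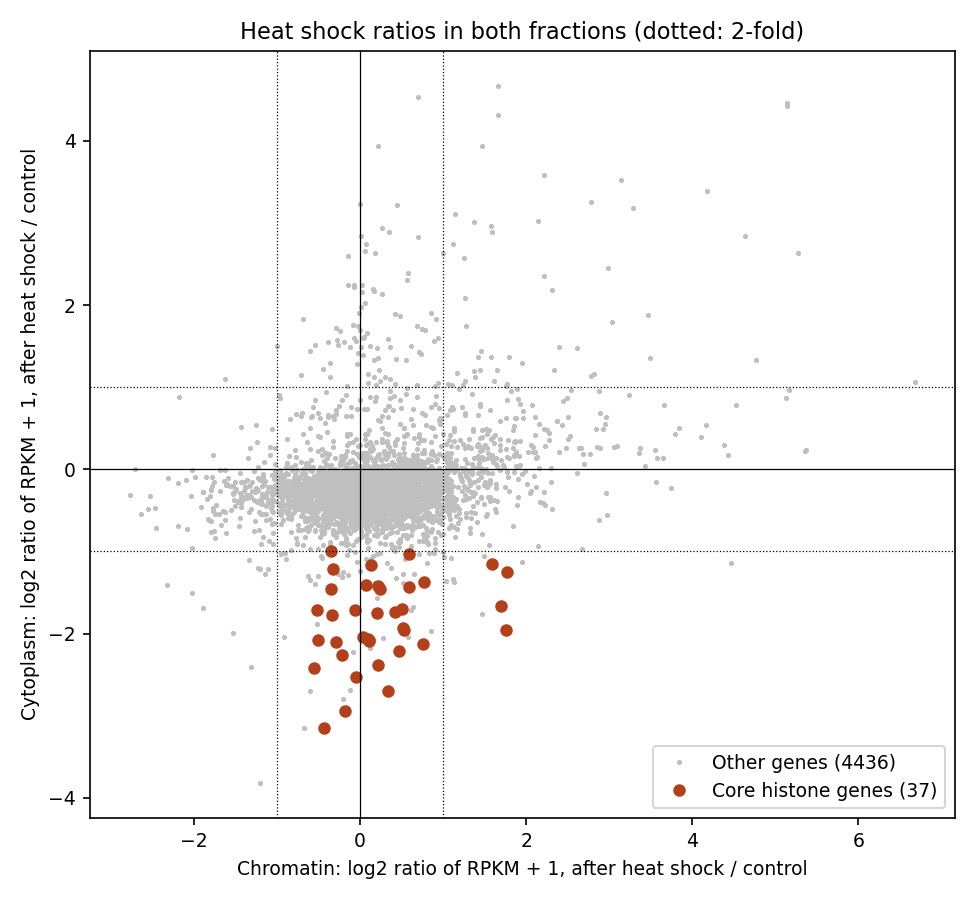
Log2 ratio of RPKM + 1, heat shock over control, in chromatin (x axis) and cytoplasm (y axis) for the 37 core histone genes and the other genes, with dotted lines at 2-fold. The core histone genes lie low on the y axis, around a median of -1.78, and spread around 0 on the x axis, with 4 genes to the right of the 2-fold line.

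The summed reads of the 41 genes gave the same picture without depending on how reads were divided among near-identical copies within the set. They were 1634 reads in control chromatin and 1682 after heat shock, 89.0 and 86.1 RPM (the read count divided by the size of the library only), a ratio of 0.968 (0.903 to 1.04). In cytoplasm they were 4599 and 1554 reads, 555 and 139.6 RPM, so the sum was 3.97-fold lower after heat shock (3.75 to 4.21). Without the 4 long genes the chromatin sum was higher after heat shock: the 37 genes of up to 1 kb had 875 and 1147 reads in chromatin, a ratio of 1.23 (1.13 to 1.35). Without the 4 genes at least 2-fold higher, the remaining 33 short genes had 850 and 977 reads (the 4 were left out on these same values). Their ratio was 1.08, with an interval of 0.985 to 1.19 that held no difference. Relative to reads outside the 10 highest-share genes, the ratio of all 41 genes was 1.13. The cytoplasmic sum of the 37 genes was 3930 and 1348 reads, 3.91-fold lower (3.68 to 4.17). In the cytoplasm the sum therefore had the same direction with and without the long genes, and in chromatin its side of 1 depended on them and on the scaling.

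**Figure D4:**
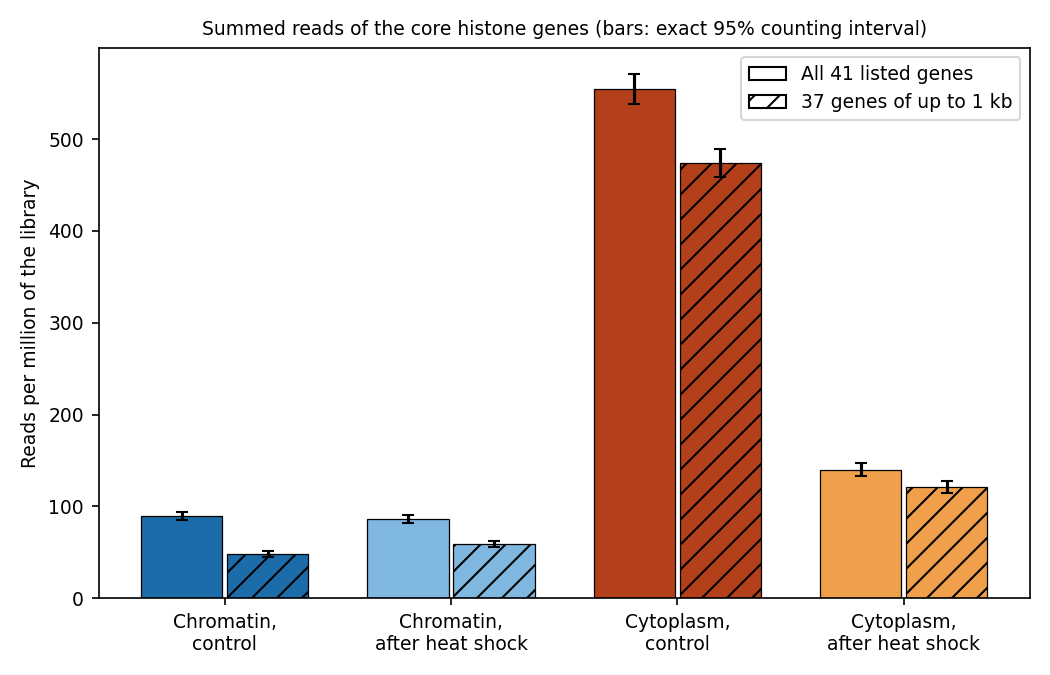
Summed RPM of the core histone genes in each library, for all 41 listed genes (plain bars) and the 37 genes of up to 1 kb (hatched bars), with exact 95% counting intervals. Control cytoplasm stands at 555 for all 41 genes and cytoplasm after heat shock at 139.6, while both chromatin libraries lie at 89.0 or below.

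In control cells, core histone RNA had a larger share of the cytoplasmic than of the chromatin library. The median log2 ratio, chromatin over cytoplasm, was -2.81 over the 37 genes, with 36 lower in chromatin by 2-fold or more and 0 higher. Over all 4512 genes with a ratio the median was 0.58, 11.7% were lower in chromatin by 2-fold or more and 32.4% higher. Of the 40 genes listed in both libraries, 39 had a counting interval below equality and 1, ENSMUSG00000047246, above it, against 9.36% below and 61.9% above of all genes. With equal RPKM sums the median was -1.59, and 32 of the 36 genes were at least 2-fold lower on all 4 scalings. ENSMUSG00000067455, ENSMUSG00000071478, ENSMUSG00000091405 and ENSMUSG00000096010 were not. Of all genes past 2-fold, 73.4% were higher in chromatin, against 95.2% with equal sums, 37.9% with the all-gene median at 0 and 85.1% with equal sums outside the 10 highest-RPKM genes. The kept genes of over 200 bp to 1 kb outside the set leaned the same way, with a median of -0.79 and 60 of 131 (45.8%) at least 2-fold lower in chromatin.

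By the log2(RPKM + 1) ratio, among genes with at least 20 reads in a compared library, ENSMUSG00000069310 (489 bp) was farthest toward the cytoplasm, at 1.45 RPKM in control chromatin and 43.4 in control cytoplasm, 30.0-fold lower in chromatin (17.1 to 57.4). ENSMUSG00000063021 (393 bp) was at 2.36 and 54.3 RPKM, 23.1-fold lower (14.0 to 40.5). By plain fold, ENSMUSG00000061991 (399 bp, 3 and 51 reads) was farther, at 37.7-fold lower (12.2 to 189). ENSMUSG00000075031, higher in chromatin after heat shock, was at 0.964 and 23.8 RPKM, 24.6-fold lower (12.0 to 58.8). At the near end, ENSMUSG00000060639 was at 5.02 RPKM in control chromatin and 8.13 in control cytoplasm, only 1.62-fold lower (1.10 to 2.38), and this gene also had the smallest cytoplasmic difference after heat shock. ENSMUSG00000091405 (815 bp) was at 3.61 and 17.9 RPKM, 4.96-fold lower (3.57 to 6.97), and ENSMUSG00000067455 (774 bp) at 4.08 and 22.6 RPKM, 5.54-fold lower (4.06 to 7.64). The set thus held genes with chromatin levels close to and far below their cytoplasmic levels.

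After heat shock the fractions were closer. The median log2 ratio, chromatin over cytoplasm, was -0.82, with 14 of 37 genes lower in chromatin by 2-fold or more, 0 higher by as much and 5 above 0. Over all 4575 genes with a ratio the median was 0.92, 6.93% were lower in chromatin by 2-fold or more and 45.8% higher. The other 139 kept genes of over 200 bp to 1 kb had a median of -0.37. Of these, 48 (34.5%) were at least 2-fold lower in chromatin and 44 higher. The share of core histone genes at least 2-fold lower (37.8%) was thus near that of genes of their own length. By counting intervals, 21 of the 41 genes lay below equality, 3 above and 17 held it, against 7.06% below and 61.2% above of all genes. With equal RPKM sums the set's median was 0.10 and 0 genes were at least 2-fold lower, with 0 counting intervals below equality and 11 above, so the sign of this median also depends on the scale. The median of all genes was then 1.59. Of all genes past 2-fold, 86.9% were higher in chromatin, against 97.2% with equal sums and 33.4% with the all-gene median at 0. Relative to library totals, the summed reads of the 41 genes were 6.23-fold lower in chromatin than in cytoplasm in control cells (5.89 to 6.60) and 1.62-fold lower after heat shock (1.51 to 1.74).

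By the log2(RPKM + 1) ratio, ENSMUSG00000069266 (397 bp) was farthest toward the cytoplasm after heat shock, at 3.997 RPKM in chromatin and 14.3 in cytoplasm, 3.57-fold lower in chromatin (2.29 to 5.67). ENSMUSG00000060093 (539 bp) was at 2.09 and 7.33 RPKM, 3.51-fold lower (2.06 to 6.15), and ENSMUSG00000061482 2.74-fold lower (2.18 to 3.45). By plain fold, ENSMUSG00000061991 was farther, at 5.70-fold lower (1.76 to 24.0) from 4 and 13 reads. ENSMUSG00000069309, with 1 and 5 reads, had a fold of 8.78 whose interval of 0.982 to 415 held equality. ENSMUSG00000062727 and ENSMUSG00000075031 were at 5.16 and 5.66 RPKM in chromatin and at 3.78 and 5.37 RPKM in cytoplasm, and both intervals held equality. So did those of ENSMUSG00000069300 and ENSMUSG00000058385. For none of the 4 genes higher in chromatin was a difference between fractions after heat shock thus detectable on the deposited scale. These intervals shift with the scale. Of the 41 genes, 11 lay above equality with equal RPKM sums, and 35 lay below it with the all-gene median at 0. Interval shares of all genes on these scales are not given. By 2-fold on the log2 ratio, 3469 of all 4575 genes were higher in chromatin with equal RPKM sums and 101 lower. With the all-gene median at 0, 392 were higher and 781 lower. Of the 37 core histone genes, 4 were higher and 0 lower with equal sums, and 0 higher and 32 lower with the all-gene median at 0.

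The difference between the fractions in the heat shock ratio, chromatin minus cytoplasm, was above 0 for all 37 genes, with a median of 2.15. It was at least 1 on the log2 scale for 35 genes and at or below -1 for 0. Over all 4473 genes with both ratios the median was 0.38, 16.5% were at least 1 higher in chromatin and 4.52% at least 1 lower. Of all genes past this threshold, 78.5% were higher, against 44.8% with equal sums, 48.5% with the all-gene median at 0 and 53.1% with equal sums outside the 10 highest-RPKM genes. The set's median on these scales was 1.78, 1.78 and 1.92. Other kept genes of over 200 bp to 1 kb leaned the same way as deposited. The median of these 125 genes was 0.67, with 54 at least 1 higher in chromatin and 15 at least 1 lower. ENSMUSG00000075031 had the highest difference (3.72), followed by ENSMUSG00000069300 (3.36) and ENSMUSG00000094338 (3.04). ENSMUSG00000060639 (0.65), ENSMUSG00000069266 (1.12) and ENSMUSG00000069265 (1.21) had the lowest among genes with at least 20 reads in a compared library. The difference itself could not be tested with 1 library per group.

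**Figure D5:**
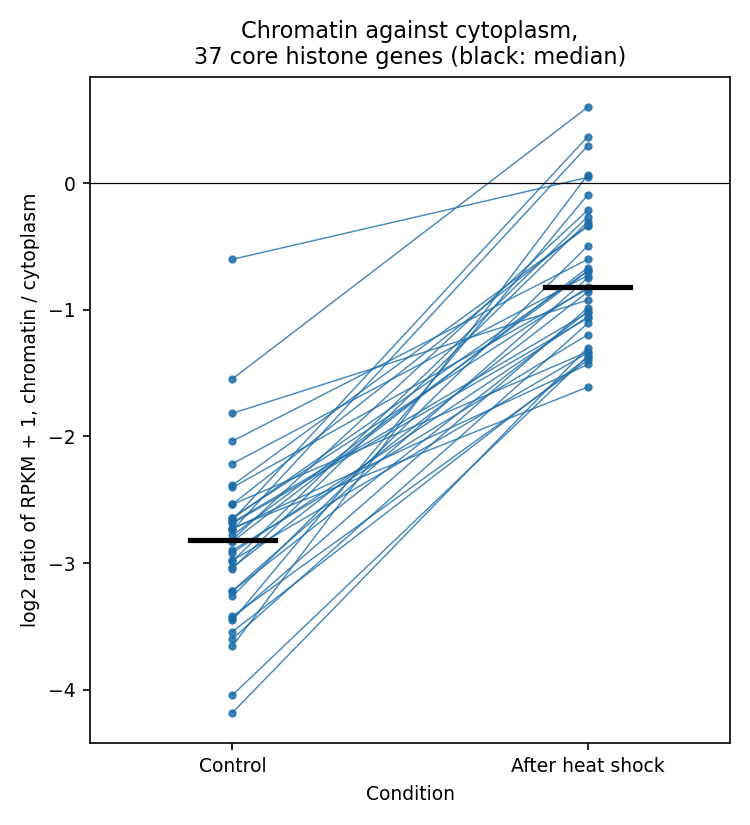
Log2 ratio of RPKM + 1, chromatin over cytoplasm, of the 37 core histone genes in control cells and after heat shock, with a line joining the values of each gene and a black bar at the median. All 37 lines go up, from a median of -2.81 to a median of -0.82, and 5 genes lie above 0 after heat shock.

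The 4 genes with a recovered length over 1 kb differed from the short ones and from each other. A core histone gene without introns is short, and RPKM over a long span is not comparable in level with that of the short genes, so only ratios within each gene are read here. RefSeq held 6 core histone genes of these clusters with spans over 1 kb, from 2667 to 37455 bp, and 0 of the 4 lengths equalled a RefSeq length. ENSMUSG00000047246 (37383 bp) had 530, 258, 85 and 33 reads in control chromatin, heat shock chromatin, control cytoplasm and heat shock cytoplasm. Among the genes listed in both fractions of control cells it was the single gene with a larger share in chromatin, by 2.82-fold, and it was lower after heat shock in chromatin, at a ratio of 0.458 (0.393 to 0.532). It held 32.4% of the core histone reads in control chromatin, 15.3% in heat shock chromatin, 1.85% in control cytoplasm and 2.12% in heat shock cytoplasm. Without it the ratio of summed chromatin reads was 1.21 (1.12 to 1.31). ENSMUSG00000096010 (2863 bp) had 178, 117, 527 and 144 reads and was lower in both fractions, at 0.618 in chromatin (0.485 to 0.785) and 4.91-fold lower in cytoplasm (4.08 to 5.95). ENSMUSG00000018102 (8290 bp) had 46, 133, 57 and 25 reads. It was 2.72-fold higher in chromatin (1.93 to 3.89) and 3.06-fold lower in cytoplasm (1.88 to 5.11). ENSMUSG00000068854 (2620 bp) had 5 and 27 reads in chromatin, 5.08-fold higher after heat shock (1.93 to 16.9), was not listed in control cytoplasm and had 4 reads in heat shock cytoplasm. What part of each span the reads fell on cannot be read from these tables. The filter left out these genes except ENSMUSG00000096010, and also ENSMUSG00000063689 (444 bp), with 1, 8, 10 and 1 reads. ENSMUSG00000114279 was listed in no library.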

How the data were processed

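RNA-seq libraries of chromatin and cytoplasm from MEFs with and without heat shock were used, with groups taken from sample titles and 1 library per group. The authors deposited 1 RPKM value per Ensembl gene identifier, leaving out genes that had no read. The submitters' processing notes name cutadapt, STAR and GRCm38 but no version. Not given in the sources used here are the counter, the annotation release, strand handling and how reads with several matches were counted. Short RNA fragments were selected on a gel, per the labels' protocols.

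The deposited RPKM values were whole multiples of 1 read's worth, which allowed the total of each library and the reads and length of each gene to be recovered (tolerance 0.002, 20000 pairs), after the recovery was tested on simulated data. The reads recovered came to 98.4%, 98.5%, 99.6% and 99.7% of each library's total, since reads that share a factor with the length come out too small together with it. Ratios were log2((RPKM + 1)/(RPKM + 1)) for genes whose mean over the libraries reached 1 RPKM, and genes at least 2-fold apart were counted. A gene not listed in a compared library got no ratio. Plain folds are RPKM ratios with exact 95% Clopper-Pearson intervals from recovered reads. The protocols describe no molecular identifiers, so reads may be copies of the same molecule, and intervals cover counting error only. No test was possible with 1 library per group. Other scalings, pseudocounts, filters and gene lengths were tried.

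The genes named are, per comparison, the 3 highest and 3 lowest log2 ratios among kept genes with at least 20 reads in a compared library, and genes not listed somewhere. The highest genes by mean RPKM, the genes over 1 kb, the genes missing a call on a scaling or passing 2-fold by plain ratio, ENSMUSG00000060981, ENSMUSG00000061991 and ENSMUSG00000063689 were named after their values were seen. Because 0 identifiers could be paired with symbols, the planned sums by histone class, the marker lists and the lists of other histone-related genes were not run. The core histone genes and all lists were chosen with earlier results of these data known. Scripts ran in Python 3.11.15 with scipy 1.17.1, pandas 2.3.3 and numpy 2.4.6.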

Additional observations from a re-analysis of the deposited data

Results flagged for a closer look

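Heat shock ratios of core histone genes differed between the fractions, a difference that was not tested because each group held 1 library. Of the 37 genes past the filter, 24 had a log2 ratio above 0 in chromatin and below 0 in cytoplasm, as had 46.5% of all genes. All 37 were below 0 in cytoplasm, and the number above 0 in chromatin was 10 with equal RPKM sums, 14 with equal sums outside the 10 highest-RPKM genes and 19 with the all-gene median at 0. The median of all genes in chromatin was -0.38, -0.29 and 0 on these scales, against 0.12 as deposited. Over the 37 genes, the median difference, chromatin minus cytoplasm, was 2.15. It was 0.38 over all genes and 0.67 over the other kept genes of over 200 bp to 1 kb. The difference was 2.74 for ENSMUSG00000058385, 3.03 for ENSMUSG00000062727, 3.36 for ENSMUSG00000069300 and 3.72 for ENSMUSG00000075031, which passed 2-fold upward in chromatin and downward in cytoplasm. Each of these 4 genes had fewer than 10 reads in control chromatin.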

How the results depend on the processing

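Of 164 values recomputed under alternative settings, 109 kept their direction and size within the limits set, 49 moved and 6 changed direction. The cytoplasmic heat shock median ranged from -1.52, with the all-gene median at 0, to -2.03, without a pseudocount. With equal RPKM sums the chromatin heat shock median was -0.35 with 4 genes at least 2-fold lower, the chromatin-over-cytoplasm median in control cells -1.59, the chromatin-over-cytoplasm median after heat shock 0.10 with 4 genes at least 2-fold higher and 0 lower, and the difference between fractions 1.78. With the all-gene median at 0, the chromatin-over-cytoplasm median in control cells was -3.39, the chromatin-over-cytoplasm median after heat shock -1.74 with 32 genes at least 2-fold lower, and the difference between fractions 1.78. With equal sums outside the 10 highest-RPKM genes, the chromatin heat shock median was -0.26 (1 gene lower), the chromatin-over-cytoplasm median in control cells -2.47, and 9 genes were at least 2-fold lower in chromatin than in cytoplasm after heat shock. With a pseudocount of 0.1, 7 genes were at least 2-fold higher and 1 lower in chromatin after heat shock, against 728 and 415 of all 4635 genes. The chromatin-over-cytoplasm medians (control, then heat shock) were then -3.48 and -1.10 (1 gene higher after heat shock), and the difference between fractions 2.47. Without a pseudocount but with at least 10 reads, the chromatin-over-cytoplasm medians (control, then heat shock) were -3.54 and -1.14 (1 gene higher after heat shock), and the difference between fractions 2.51. No filter, or a mean of at least 5 RPKM, moved none of these medians or counts beyond the limits.

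Outside the 10 highest-share genes the summed RPM values were 113 and 127.7 in control and heat shock chromatin and 2240.0 and 674 in control and heat shock cytoplasm, and for the 37 genes of up to 1 kb they were 47.7, 58.7, 474 and 121. The chromatin heat shock ratio of the sums was 0.968, and it turned to 1.13 outside the 10 highest-share genes, 1.23 for genes of up to 1 kb and 1.21 without the longest gene, an alternative chosen after seeing the data. The cytoplasmic ratio was 0.301 outside the 10 highest-share genes. The ratio of chromatin to cytoplasm in control cells was 0.0505, 0.101 and 0.110 under these 3 settings, and after heat shock 0.189, 0.485 and 0.533. Rescaling of the counting intervals was also added after seeing the data. In chromatin after heat shock, 6 genes lay above and 9 below no difference with equal sums, 6 and 8 with equal sums outside the 10 highest-RPKM genes, and 7 and 6 with the all-gene median at 0. Between fractions of control cells, 2 lay above with equal sums. Between fractions after heat shock, 11 lay above and 0 below with equal sums, and 0 above and 35 below with the all-gene median at 0. Shares of all genes by rescaled intervals are not given. The cause of the other shifts was not tested. Low read counts limit the chromatin values most, where 13 genes had fewer than 10 control reads. No paired analysis was possible because each group held 1 library.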
